A study of Mus musculus with 26 samples.

Results

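Moesin and 4 adhesion receptor genes carried 13 C-to-U editing sites in mouse bone marrow-derived macrophages, of 526 distinct sites listed in all. The genes were Msn, Cd44, Cd93, Itgb2 and Itgam, and every site listed under these symbols was taken, whatever its rate. Of the 13 sites, 12 stood in the single-cell list (171 sites in 89 genes), 4 in the bulk list (410 sites in 275 genes) and 3, all in Msn, in both. All macrophages came from C57BL/6J mice and matured from bone marrow progenitors in medium with M-CSF at 20 ng per ml, with harvest on day 7 to 9. The single-cell list covers 24 wild-type macrophages captured one by one on a C1 chip, whose libraries the authors chose by cDNA amount and fragment size. All 24 cells came from 1 mouse. The bulk list comes from 1 library of wild-type macrophages, set by the authors against 1 library of Apobec1 -/- macrophages. Mice of the knockout genotype lack APOBEC1, the deaminase, and their library entered only as a filter that removed sites also read as changed there, so no value of that genotype is given. The study describes that filter for the bulk list, which holds 4 of the 13 sites, and not for the single-cell list. An editing rate is the share of reads at a position that carry T where the genome has C, and the list of single cells holds sites with an edited read in at least 3 of the 24 cells.

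Moesin is a member of the ezrin, radixin and moesin family. Its amino-terminal part binds the inner face of the plasma membrane and the tails of receptors, and its carboxy-terminal part binds cortical actin filaments, so it ties receptors to the cell cortex. CD44 is the main receptor for hyaluronan and a classical moesin partner. CD93 is a C-type lectin-like surface receptor whose tail also binds moesin. Itgb2 encodes the β2 integrin subunit CD18 and Itgam the αM subunit CD11b, which together form Mac-1, or complement receptor 3, the receptor with which macrophages adhere and take up opsonised particles. APOBEC1 deaminates C to U in messenger RNA, mostly in AU-rich stretches of 3′ untranslated regions, where the change alters no amino acid.

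The lists hold editing rates and no expression. CD11b, one of the surface proteins with which the authors checked maturation, could be followed only as transcript coverage, and the Itgam site was covered in 22 of 24 cells. Of 7 macrophage markers, 1 (Itgam itself) had a site in the single-cell list and 0 in the bulk list, and of 7 markers of other marrow cells 0 had a site in either. The columns of the single-cell list carry no cell names, so cells are numbered here by column, and these are not the numbers in the labels. The list gives no coverage for a cell, and a rate of 0 therefore says that no edited read was listed there, not that the transcript was unedited.

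All 13 sites lay in the 3′ untranslated region and last exon of at least 1 coding transcript of their genes. The 30 reference bases around 12 of them are shown because they carry the position and the sequence setting of the finding. They were read 5′ to 3′ on the transcribed strand from the RefSeq sequence of GRCm38, the mm10 build, with 8 bases before and 21 after the edited C, which is the capital letter.
Msn site 2, chrX:96167936-96167965, plus strand: atatctaaCaatattggtttctaccttttt
Msn site 3, chrX:96168021-96168050, plus strand: attttttaCtactgtcaccccacatctgag
Msn site 4, chrX:96168035-96168064, plus strand: tcaccccaCatctgagaagaatatactata
Msn site 5, chrX:96168081-96168110, plus strand: gccaaaaaCattatgtaagaagatttcagt
Msn site 6, chrX:96168122-96168151, plus strand: acctgtcaCtataggtcatacaatacattt
Msn site 7, chrX:96168152-96168181, plus strand: aaaatgtaCttagtatttggttttattgtt
Cd44 site, chr2:102811591-102811620, minus strand: atgatgtaCtgtgtctttgtgtaagtccta
Cd93 site 1, chr2:148440359-148440388, minus strand: taacaaaaCtcctagattcatttgtctttg
Cd93 site 2, chr2:148438143-148438172, minus strand: cctaaacaCtatttgcaaaggaagtctagc
Cd93 site 3, chr2:148436910-148436939, minus strand: agtaatttCgcctcaagccctcagtaagaa
Itgb2 site, chr10:77565603-77565632, plus strand: tataaaaaCtatatccaacgtattatttca
Itgam site, chr7:128118311-128118340, plus strand: aatgttgtCtttttattaatatgctcaaat

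An A stood directly before the edited C at 11 of the 13 sites (84.6%), among them all 7 Msn sites, against 436 of the other 513 listed sites (85.0%). Cd93 site 3 and the Itgam site had a T there. Among 865 other C within 250 nt of the 13 sites, 191 (22.1%) had an A before them. This distance was counted on the genome. It ran past the annotated transcript end at the Itgb2 site, 75 nt from that end, and at the Itgam site, 172 nt from it. An A or T followed the C at 12 sites (92.3%), against 87.7% of the other listed sites and 67.1% of the neighbouring C. The exception was Cd93 site 3, where a G followed. The windows held 66.7% A and T at the median (50% to 80%), the same median as at the other listed sites, against 53.3% around the neighbouring C. The letters TGAT, searched on the transcribed strand in the bases after the edited C, were found in 0 of the 13 windows, in 61 of the other 513 (11.9%) and in 6.47% of those of neighbouring C. These counts describe letters in a window of 30 bases and say nothing on the binding of a factor.

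The Msn sites, of which sites 2 to 7 are at positions 96167944, 96168029, 96168043, 96168089, 96168130 and 96168160 of chromosome X, all lay in exon 13 of 13 of transcript Msn-201 (96166470 to 96168552), whose 3′ untranslated region is 1918 nt long. Site 1 stood alone, nearer the stop codon. The other 6 lay 1310 to 1526 nt after it, within 216 nt of each other, with gaps of 85, 14, 46, 41 and 30 nt between neighbours. The map of the Msn 3′ untranslated region shows this cluster, which ends 392 nt before the end of the transcript. Of the 89 genes in the single-cell list 66 had 1 site. With 7, Msn had as many as Cd36, Nptn and B2m, and 3 genes had more.

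**Figure D1:**
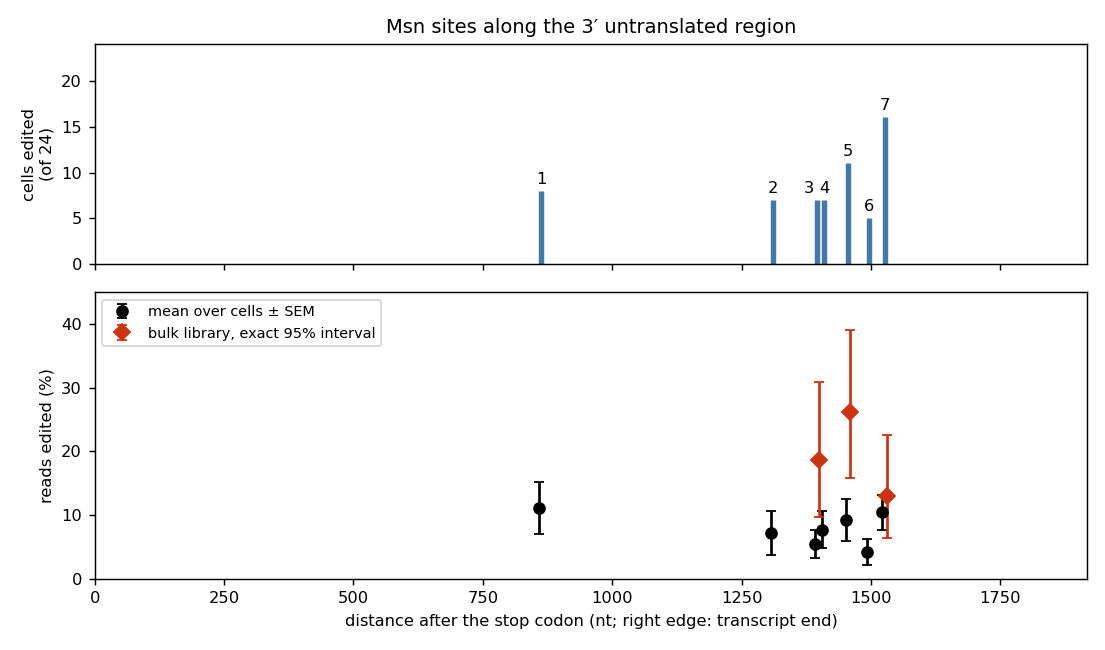
The 7 Msn sites by distance after the stop codon in nt, with the right edge at the transcript end. The upper panel gives the number of the 24 cells edited at each numbered site as bars, and the lower panel the mean rate over covered cells ± SEM (black circles) and the bulk rate with its exact 95% interval (red diamonds) in percent of reads. Sites 2 to 7 sit between 1310 and 1526 nt, site 7 was edited in 16 cells, and the means over cells at sites 3 and 5 lie below the bulk rates.

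Cd93 had 3 sites in exon 2 of 2 (chromosome 2, 148436640 to 148441267), in a 3′ untranslated region of 4603 nt. They stood at positions 148440380, 148438164 and 148436931, far apart, at 863, 3079 and 4312 nt after the stop codon. Sites 2 and 3 were listed in single cells only and site 1 in bulk only. The Cd44 site, at position 102811612 of chromosome 2, lay in exon 14 of 14, 2521 nt after the stop codon, in a stretch that is 3′ untranslated region in 2 of 8 coding transcripts. The Itgb2 site, at position 77565611 of chromosome 10, lay in exon 16 of 16, 371 nt after the stop codon and 75 nt from the transcript end, and in the 3′ untranslated region of 1 of 3 coding transcripts. The Itgam site, at position 128118319 of chromosome 7, lay in exon 30 of 30, 942 nt after the stop codon, and in that region of 2 of 4 coding transcripts. The annotated locus Gm49368 also spans that position, and whether reads there could stem from it was not tested.

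Over the single cells, 284 of 288 values at the 12 sites were covered (98.6%, against 87.1% at the other sites), and 97 of the 284 were above 0 (34.2%, against 35.7%). The median of the 12 site means was 7.46%, against 7.22% over the other 159 sites, and the median SD over cells 12.8 against 14.5 points. The sites were edited in 7 cells at the median, against 5 at the other sites, and 5 of 12 had a cell above 50%, against 82 of 159. Rates and shares of the 12 sites thus stood near those of the rest of the list, while their coverage was more complete.

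**Figure D2:**
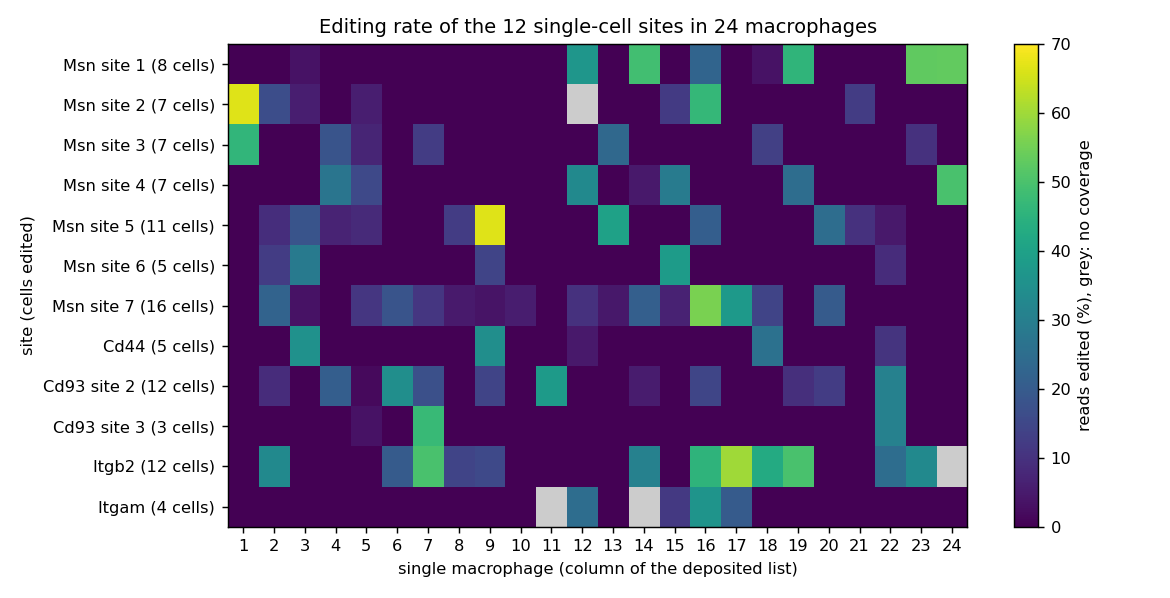
Editing rate in percent of reads (colour) of each of the 12 single-cell sites (vertical, with the number of cells edited in brackets) in the 24 macrophages (horizontal, by column of the deposited list). Grey fields had no coverage, dark fields a rate of 0. The 97 fields above 0 are scattered over sites and cells, and column 11 is dark at all 7 Msn sites.

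Msn, the linker of the set, was edited at one or more sites in 23 of 24 cells, although no site of it was edited in more than 16. Site 7, nearest the transcript end, was edited in most cells, 16 of 24, with a mean of 10.4% ± 13.7 (SD, n = 24 cells), a lowest rate of 0, a median of 5.28% and a highest of 56%. Its edited cells ranged upward from 3.45%, with cell columns 16 and 17 highest at 56% and 37.5% and the next at 22.2%. Site 5 was edited in 11 cells, at 9.27% ± 16.0 (SD, n = 24; lowest and median 0). Column 9 gave 66.7% there and column 13 gave 40%, and the other 9 edited cells lay between 4.76% and 25%.

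Site 1, apart from the cluster, had the highest mean of the 7, 11.1% ± 19.8 (SD, n = 24; lowest and median 0), from only 8 edited cells. Its edited cells were spread over a wide range. Rates were 53.1%, 52.9%, 48.9%, 45.7% and 36.8% in columns 24, 23, 14, 19 and 12, then 22.6% in column 16 and 3.51% and 3.39% in columns 3 and 18. Sites 2, 3 and 4 were each edited in 7 cells and had a median of 0. Site 2 averaged 7.22% ± 16.6 (SD, n = 23), and columns 1 and 16, at 66.7% and 46.7%, stood far above the other 5 edited cells, at 5.88% to 16.7%, and the mean without column 1 was 4.52%. Site 3 averaged 5.45% ± 11.0 (SD, n = 24), with its highest rate, 46.2%, again in column 1 and the others at 7.14% to 23.5%. Site 4, which lies 14 nt from site 3, averaged 7.70% ± 14.2 (SD, n = 24) with rates of 4.76% to 50% in its edited cells. Sites 3 and 4 were both edited in 2 cells only, columns 4 and 5. Site 6 was edited in the fewest, 5 cells at 8.82% to 38.5%, and averaged 4.28% ± 9.99 (SD, n = 24; median 0), or 2.79% without column 15.

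Between the 7 Msn sites these means could not be ordered beyond their spread over cells. Two-sided permutation tests of the within-cell difference were run on all 13385 pairs of sites in the list covered together in at least 10 cells, with Benjamini-Hochberg adjustment over all of them, and 479 pairs (3.58%) passed an adjusted p of 0.05. Of the 21 Msn pairs 0 passed, and 0 had an unadjusted p under 0.05. The Wilcoxon signed-rank statistic also called 0. The smallest adjusted p in the permutation test was 0.689, for site 7 minus site 6, a difference of 6.16 points with an unadjusted p of 0.107. These tests do not show that the sites were edited alike, and their p-values measure only the spread between 24 cells of 1 mouse, not between animals.

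Cd93, the lectin-like receptor, was edited in single cells at its 2 more distal sites. Site 2 had edited reads in 12 of 24 cells and a mean of 8.67% ± 12.0 (SD, n = 24), with a lowest rate of 0, a median of 0.826% and a highest of 38.2%. Columns 11, 6 and 22 led with 38.2%, 34.6% and 30.7%, and the lowest edited cell, column 5, had 1.65%. Site 3 was edited in 3 cells, the fewest that the list admits, at 47.2% in column 7, 30.8% in column 22 and 3.45% in column 5. Its mean of 3.39% ± 11.3 (SD, n = 24; lowest and median 0) ranked 168th of 171, and column 7 alone held 58.0% of the summed rate, so that the mean without it was 1.49%. All 3 cells were also edited at site 2, 1233 nt away, where the product of the shares of edited cells gives 1.5. Site 2 minus site 3 was 5.28 points (SEM 2.73, permutation test, p = 0.0666, adjusted p = 0.534), a difference that did not pass.

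Itgb2, the common β2 subunit of the leukocyte integrins, had the highest mean of the 12 sites, 18.3% ± 20.7 (SD, n = 23 cells), the 9th of 171. Its lowest rate was 0, its median 14.3% and its highest 60%. It was edited in 12 cells, and where it was edited the rates were high. Columns 17, 7, 19, 16 and 18 gave 60%, 50%, 50%, 45.5% and 42.9%, and the other 7 edited cells lay between 14.3% and 33.3%. No edited cell lay below 14.3% and 11 covered cells were at 0. The reads behind these rates are not listed, and in a cell with few reads a single edited read already gives a high rate. Whether low depth shaped the gap between 0 and 14.3% was not tested. Itgam, which encodes the partner subunit of Mac-1, was edited in 4 of 22 cells, at 36.4%, 25%, 20% and 11.5% in columns 16, 12, 17 and 15, with a mean of 4.22% ± 9.97 (SD, n = 22; lowest and median 0), or 2.69% without column 16. Both subunits of the receptor were edited in 2 of the 21 cells covered at both, columns 16 and 17, where the product of the shares, with 11 and 4 edited cells, gives 2.10. Cd44, the hyaluronan receptor, was edited in 5 of 24 cells and averaged 4.64% ± 10.9 (SD, n = 24; lowest and median 0). Its rates were 35.5%, 34.5% and 26.1% in columns 3, 9 and 18, and 10.5% and 4.88% in columns 22 and 12.

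**Figure D3:**
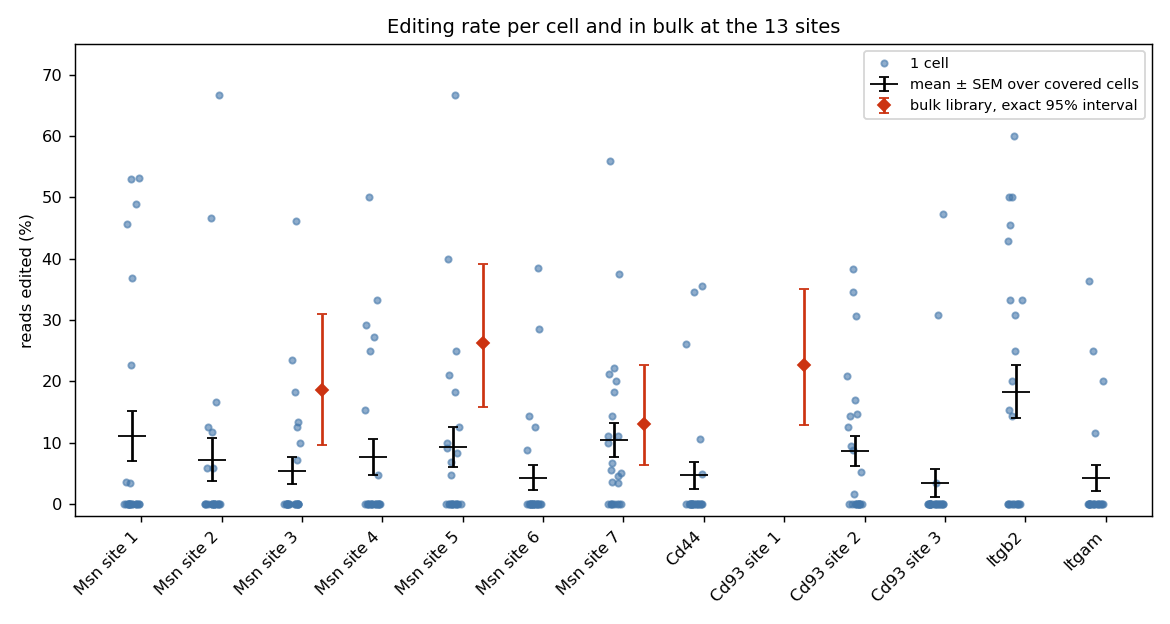
Editing rate in percent of reads at the 13 sites. Each blue point is 1 covered cell, black bars are the mean over covered cells ± SEM, and red diamonds are the bulk rate with its exact 95% interval, where listed. The Itgb2 site has the highest mean, 18.3%, most sites have a median of 0 with a few cells above 30%, and Cd93 site 1 has a bulk value only.

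Of the 66 pairs among the 12 sites, 1 passed the permutation test (1.52%, against 3.58% of all pairs). Itgb2 minus Cd93 site 3 was 14.7 points (SEM 4.23, 23 cells, permutation test, p = 0.00162, adjusted p = 0.0457), with Itgb2 higher in 11 cells, lower in 2 and equal in 10. The call stood close to the threshold and was lost in 17 of 24 repeats that left out 1 cell each, in which the difference stayed between 12.7 and 15.7 points and the adjusted p reached 0.0906 at most. It held only without column 1, 3, 4, 5, 13, 15 or 22. Over all 27 alternatives the adjusted p ran between 0.0318 and 1. A further 6 pairs had an unadjusted p under 0.05 and did not pass, 5 of them with Itgb2 as the higher site. Itgb2 minus Itgam, the 2 chains of Mac-1, was 14.1 points (SEM 4.57, 21 cells, permutation test, adjusted p = 0.133), and Itgb2 minus Cd44 was 13.4 points (permutation test, adjusted p = 0.213). Msn site 7 minus Itgam was 6.20 points (SEM 2.01, 22 cells, permutation test, adjusted p = 0.135), with Msn site 7 higher in 13 cells and lower in 2.

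When the 12 sites were put in order of their means, 0 of the 11 pairs of neighbours passed. Neighbours were picked by the means under test, so their differences were small by choice. That count therefore cannot decide whether the order holds. The step between the highest, Itgb2, and the next, Msn site 1, was 8.98 points (permutation test, p = 0.0668, adjusted p = 0.534). Set against all other sites of the list in the same tests, Itgb2 was higher than 2 and lower than 1 of 164 sites (1.83% called). The other 11 were higher than 0 and lower than 2 to 8 sites, with Cd93 site 3 at 8 (4.85% called). Over all pairs of the list 3.58% were called. These counts include the other member sites, so the called pair of Itgb2 and Cd93 site 3 enters the counts of both and adds no further evidence.

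In the bulk library, Msn and Cd93 carried all 4 listed sites, with 51 edited reads of 259. Msn site 5 was edited in 16 of 61 reads, 26.2% (exact Clopper-Pearson 95% interval 15.8% to 39.1%), and ranked 20th of 410. Cd93 site 1 was edited in 14 of 62, 22.6% (12.9% to 35.0%), Msn site 3 in 11 of 59, 18.6% (9.69% to 30.9%), and Msn site 7 in 10 of 77, 13.0% (6.41% to 22.6%). All lay above the list's median rate of 11.8%, and their depth of 59 to 77 reads lay above its median of 30 (range 17 to 108). The intervals allow for counting error alone, because 1 library gives no spread between cultures or mice. Fisher's exact test between sites of a gene was run on 318 pairs of the whole list, of which 12 (3.77%) passed an adjusted p of 0.05, and of the 3 Msn pairs 0 did. Msn site 5 exceeded site 7 by 13.2 points (two-sided Fisher's exact test, p = 0.0782, adjusted p = 0.666). Msn site 3 differed from site 5 by -7.59 points (p = 0.384 in the same exact test) and from site 7 by 5.66 points (p = 0.474). These tests compare reads of 1 library, and sites 60 to 131 nt apart share some of them.

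At the 3 Msn sites in both lists, the mean over cells lay below the bulk rate, by very different amounts. The mean was 5.45% against 18.6% in bulk at site 3, a ratio of 0.292, and 9.27% against 26.2% in bulk at site 5, a ratio of 0.353. Both means were below the interval of the bulk rate, and 2 of 24 cells exceeded the bulk rate at each site. That comparison leaves out the error of the means, with an SEM over cells of 2.25 points at site 3 and 3.26 at site 5. At site 7 the mean was 10.4% against 13.0% in bulk, a ratio of 0.803, inside the interval, with 7 of 24 cells above. Over the other 52 shared sites, in 27 genes, the median ratio was 0.591, 13 sites (25%) had a mean below the bulk interval, and 21.3% of cells at the median exceeded the bulk rate. Of all 55 shared sites, 1 had a lower ratio than Msn site 3, 4 a lower one than site 5 and 41 a lower one than site 7. The order of the 3 sites therefore differed, with site 7 highest over cells and site 5 highest in bulk, though neither order passed a test between sites. Bulk and single-cell libraries also differ in preparation, and the authors kept bulk sites only above thresholds of coverage and editing rate. The part of either in these ratios was not tested.

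Most macrophages carried edited reads at several Msn sites, but which sites they were varied. With 24 cells in all, 3 cells were edited at 1 site, 9 at 2, 6 at 3, 3 at 4 and 2 at 5. Cd36, which encodes a scavenger receptor and also has 7 sites, was edited at one or more of them in 12 cells and at 3 at most. Coverage differed, with 23 cells covered at all 7 Msn sites against 15 at all 7 Cd36 sites, and of the 12 cells with no edited Cd36 site only 3 were covered at all 7. Nptn, the gene of the adhesion molecule neuroplastin, was edited in 21 cells and at 5 sites at most. B2m, the light chain of class I histocompatibility molecules, was edited at 6 sites in 4 cells and at all 7 in the other 20. Among the 23 cells covered at all 7 Msn sites there were 19 distinct sets of edited sites, 16 cells had a set that no other had, and at most 3 cells shared one. The site with the highest rate in a cell was site 7 in 6 cells, site 1 in 5, site 5 in 4, site 6 in 3, sites 2 and 4 in 2 each and site 3 in 1.

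**Figure D4:**
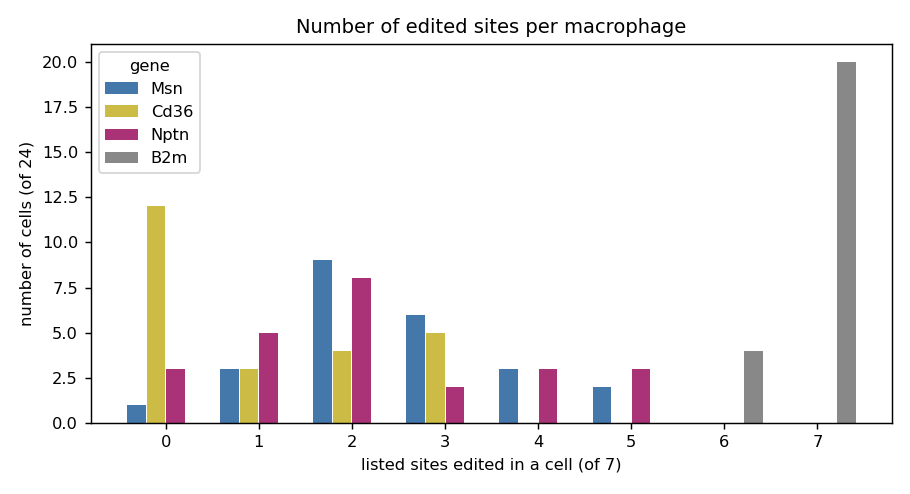
Number of the 24 macrophages (vertical) by how many of a gene's 7 listed sites were edited in the cell (horizontal), for Msn, Cd36, Nptn and B2m. Msn was edited at 2 sites in 9 cells and at none in 1, Cd36 at none in 12, and B2m at 6 or 7 in every cell. Sites without coverage count as not edited, and 9 of those 12 cells lacked coverage at 1 or more Cd36 sites.

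The cell without an edited Msn site was column 11, which was covered at all 7. Of its covered sites outside the 5 genes, 41.1% (51 of 124) were edited, and its only member site above 0 was Cd93 site 2, at 38.2%. At the other end, column 16 had the highest mean over the Msn sites, 20.9%, and also the highest share of other covered sites edited, 51.7% (over the cells, 21.1% to 51.7%, median 37.9%). The mean over Msn sites in a cell was 7.96% ± 5.27 (SD, n = 24), with a lowest value of 0 and a median of 8.00%. Some Msn site exceeded 25% in 13 cells and 50% in 5 cells, and 5 cells had 2 sites above 25%.

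Coefficients between Msn sites scattered around 0. The Spearman coefficient over the 21 pairs of Msn sites had a median of -0.06 (-0.33 to 0.41, each over 23 or 24 cells), and 7 were positive. Over 294 pairs of sites in 20 other genes the median was 0.09, and 195 were positive. Cells edited at both sites of a pair numbered 65 in sum over the 21 pairs, where the products of the shares give 64.5. Sites 1 and 4 had the highest coefficient, 0.41, with 4 cells edited at both against a product of 2.33, and sites 3 and 6 had no such cell. For sites 2 and 3 Pearson's coefficient was 0.53 and Spearman's 0.01, and column 1 was the highest cell at both. These coefficients are descriptions over cells whose depth is unknown, and neighbouring sites can share reads.

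Across the 5 genes a cell was edited at 1 to 7 of the 12 sites, with a median of 4. In 6 cells 1 of the genes was edited, in 7 cells 2, in 8 cells 3 and in 3 cells 4, and no cell had all 5. Msn was edited in 23 cells, Cd93 and Itgb2 in 12 each, Cd44 in 5 and Itgam in 4. Cd93 and Itgb2 were both edited in 8 of 23 cells, where the product of the shares gives 6.26, and Cd44 and Itgb2 in 3, where it gives 2.61. Counts lay below the product for Cd93 with Itgam (1 against 1.82), Cd44 with Cd93 (2 against 2.5) and Msn with Cd93 (11 against 11.5). Msn with Cd44, Itgb2 and Itgam gave 5, 12 and 4 cells against 4.79, 11.5 and 4, and Cd44 with Itgam 1 against 0.909. The number of these sites edited per cell went with the percent of other covered sites edited (Pearson's r 0.400, Spearman's rho 0.404, 24 cells). For the number of Msn sites alone the same coefficients were 0.117 and 0.190. By another measure, the Msn mean and the mean of the other sites had coefficients near 0 (r 0.007, rho 0). None of these was tested, and the depth of each cell is unknown.

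By its mean rate per cell, Msn was most like Igf1, a growth factor gene (Spearman's rho 0.46 over 21 cells), Stx7, which encodes a late endosomal syntaxin (0.45 over 21 cells), and Itgam (0.41 over 22 cells), of 58 genes compared. Cd44 was most like Cybb, a subunit of the phagocyte NADPH oxidase (0.58 over 24 cells), and Cd93 most like Anxa4, an annexin (0.58 over 24 cells). Itgb2 was most like Atp6ap1, an accessory subunit of the vacuolar proton pump (0.67 over 23 cells, of 57 genes), and Itgam most like Igf1 (0.47 over 20 cells, of 52 genes). Itgb2 and Itgam stood at 0.15 to each other over 21 cells. Unlike Itgam, the other receptor genes were not near Msn in profile. Msn stood at 0.03 to Itgb2 over 23 cells, and at 0.02 to Cd44 and -0.25 to Cd93 over 24 cells each. The genes named as most like were picked as the highest of 52 to 58 coefficients over 20 to 24 cells, and none was tested. Pearson's coefficient was lower for Msn with Igf1 (0.24), Cd93 with Anxa4 (0.29) and Itgam with Igf1 (0.14). It was 0.53 for Msn with Itgam, 0.68 for Cd44 with Cybb and 0.59 for Itgb2 with Atp6ap1.

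Of 43 membrane-cortex linkers and actin regulators, the group moesin works with, 30 had no listed site and 13 had at least 1, 3 in single cells and 11 in bulk. The files do not say which of the 30 were expressed. Their 14 bulk sites had a median rate of 11.2%, against 11.8% over the whole list. Ezr and Rdx, the other members of moesin's family, had none. The listed genes included Rsu1, a partner of the integrin-linked adhesion complex, at 15.2% and 18.2% in bulk, the LIM domain gene Limd1 at 16.1%, the myosin genes Myo5a (10.7% to 16%) and Myo10 (11.8%), the capping protein gene Capza2 (5.32% ± 9.92 over cells, SD, 8 cells edited), the scaffold Iqgap1 (5.89% ± 13.8, SD, 6 cells edited), and Abi1, Cfl2, Pak2, Rac1, Diap2, Fgd4 and Tes at 5.88% to 12.1% in bulk. Rac1, the small GTPase that drives actin protrusion, was edited at 8.70% in bulk.

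Of 36 adhesion receptors, ligands and shedding proteases, 11 had a listed site, 4 in single cells and 9 in bulk, and their 20 bulk sites had a median rate of 12.3%. Of the proteases of the group that cut surface receptors, Adam8 had no listed site. The other 3 had several bulk sites each, Adam9 at 10.9% to 12.1%, Adam10 at 13.0% to 15.8% and Adam17 at 12.5% to 13.8%. Spp1, the gene of osteopontin, a ligand of integrins and CD44, was edited in all 24 cells at one of its 3 single-cell sites, at 17.6% ± 7.82 (SD). Nptn reached 23.7% ± 28.8 over cells (SD, 14 cells edited) and 24.1% in bulk. Tgfbi and Cd34 were listed in single cells only, and Alcam, Emb, Cadm1 and Dag1 in bulk only, at 11.4% to 17.1%. Neither gene list is complete, and both were chosen with earlier results of these data known. Their counts therefore do not show that such genes were listed more often than others, and the medians describe the listed sites.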

How the data were processed

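The authors used Trim Galore 0.2.5 for trimming, TopHat2 for alignment to mm10 and Picard against duplicates, per the labels and the study's methods. The deposited bulk list holds, for the wild-type library, a count of reads covering a site and the edited fraction of them. The deposited single-cell list gives the fraction edited in each cell, without coverage, so the depth behind a cell's rate is unknown. Its further filters are not stated in the labels or methods. Edited bulk reads are the product of depth and rate, whole within 0.001 at all 410 sites.

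Sites were placed on GRCm38 with pysam 0.24.0 and GENCODE annotation. Within-cell differences were tested by flipping signs over cells (100000 resamples), bulk pairs by Fisher's exact test, each over the whole list. The pair test was tested on simulated data. Wilcoxon and Bonferroni versions, stricter coverage, bulk depth of at least 30, edited cells only and each cell left out were alternatives. Python 3.11.15, NumPy 2.4.6, SciPy 1.17.1, pandas 2.3.3 and matplotlib 3.10.9 were used.

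The text names all sites of the 5 genes, the genes most like each over cells (3 for Msn, 1 for the others), listed members of the 2 gene lists, and Nptn and Cd36. B2m was added after its values were seen. The bases around Msn site 1 are not reported here. The 5 genes, the lists and the tests were chosen with earlier results of these data known. Cells are separate captures from 1 mouse, per the study's methods.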

Additional observations from a re-analysis of the deposited data

How the results depend on the processing

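The single called pair was the result that depended most on the processing. Of the 66 pairs, 0 passed when the Wilcoxon signed-rank statistic was used and 0 with Bonferroni adjustment over all pairs, and 1 passed when both sites had to be covered in at least 20 cells. Leaving out each cell in turn gave 0 to 2 called pairs. Without cell column 12 the 2 were Itgam with Msn site 7 and Itgb2 with Itgam, in place of Itgb2 with Cd93 site 3. Leaving out each cell, the ratio of single-cell mean to bulk rate stayed at 0.197 to 0.305 for Msn site 3, 0.258 to 0.369 for site 5 and 0.651 to 0.838 for site 7. With the median over cells in place of the mean it was 0 at sites 3 and 5 and 0.406 at site 7. The median Spearman coefficient over Msn pairs stayed at -0.09 to -0.01 without any 1 cell. Without its leading cell the mean of Cd93 site 3 was 1.49% and that of Itgb2 16.4%. Over edited cells only, the means of 7 sites rose by more than 1 SD, among them Msn site 1 at 33.4%. Leaving out cells at 0 can only raise a mean, so the direction of that change was fixed in advance. Sites were compared within cells throughout. Between the groups of samples, no paired analysis was possible because the columns of the single-cell list carry no replicate numbers and each genotype had 1 bulk library. Unknown coverage per cell limits every rate in a cell.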
